A study of Mus musculus with 4 samples.

Results

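The potassium channel genes of the mouse were followed across the regions of coronal brain sections, in libraries of young and aged females given ethanol or vehicle. The set took every symbol of the deposited gene list that starts with Kcn, left out Kcne2 and names ending in os, and kept genes with at least 100 UMIs (unique molecular identifiers, 1 per captured transcript) over all spots. It held 77 genes, out of 96 symbols before that minimum, 99 symbols starting with Kcn and 32285 genes in all. Kcnk5 with 103 UMIs and Kcnh8 with 104 UMIs lay just inside the minimum, while Kcnk7 with 93 UMIs and Kcnq1 with 68 UMIs lay just outside. All members encode channels or their subunits, apart from the non-coding RNAs Kcnq1ot1 and Kcnmb4os2. Whether counting used the strand is not given in the sources used here, so reads of Kcnmb4os2 and of Kcnmb4, and those of Kcnq1ot1 and the gene it overlaps, may not be separable.

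The study measured spatial gene expression with 10x Genomics Visium, in which a tissue section lies on a slide of barcoded capture spots and each spot can hold several cells or parts of cells. The groups were aged ethanol, aged vehicle, young ethanol and young vehicle, with 1 library each. All animals were female C57BL/6 mice, 3 to 4 months old when young and 18 to 20 months old when aged, and all were gavaged into the stomach with either water as vehicle or ethanol at 3 g/kg, 10 times over 18 days. Left hemispheres were taken 18 h after the last gavage, the meninges were removed, and sections of 10 µm were cut at bregma -2.0 to -2.2. The sections were labelled as hippocampal brain but also held neocortex, thalamus, hypothalamus and other areas. With 1 library per group, a difference between groups has no replicate check, and the 4 libraries serve as replicates only for comparisons of regions within a section.

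Potassium channels set the resting potential of nerve cells, end the action potential and limit how fast a cell can fire again. Voltage-gated (Kv) channels are tetramers of pore subunits from the Kcna, Kcnb, Kcnc, Kcnd, Kcnq and Kcnh families, joined by silent subunits (Kcnf, Kcng, Kcns, Kcnv) and by auxiliary proteins (Kcnab, Kcnip, Kcne). Calcium- and sodium-activated channels (Kcnma, Kcnn, Kcnt) follow activity, inward rectifiers (Kcnj) and tandem pore-domain channels (Kcnk) carry resting current, and in astrocytes Kcnj10 takes up the potassium that firing releases. In the hippocampus, dentate granule cells, CA3 pyramidal cells and CA1 pyramidal cells fire in different ways, and their channel complement is known to differ.

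Promoter sequences are shown for 4 members on which the results below turn: Kcnc4, Kcnq5 and Kcnh7, which separated the hippocampal fields, and Kcnj13, which was concentrated in the choroid plexus. Each is the 250 bases before the start listed first for the gene, from RefSeq on GRCm38.p6. They are read 5′ to 3′ on the minus strand, on which all 4 genes lie. For Kcnc4 that start lies inside the gene, which reaches to 107460287. Its window is therefore not the sequence before the outer end of the gene. Capitals mark matches on either strand to 4 motifs: the TATA box searched as TATAAA, the GC box searched as GGGCGG, the E-box searched as CANNTG, and the cyclic AMP response element searched as TGACGTCA. The windows are chr3:107458899-107459148 for Kcnc4, chr1:21962651-21962900 for Kcnq5, chr2:63184288-63184537 for Kcnh7 and chr1:87394730-87394979 for Kcnj13.
Kcnc4: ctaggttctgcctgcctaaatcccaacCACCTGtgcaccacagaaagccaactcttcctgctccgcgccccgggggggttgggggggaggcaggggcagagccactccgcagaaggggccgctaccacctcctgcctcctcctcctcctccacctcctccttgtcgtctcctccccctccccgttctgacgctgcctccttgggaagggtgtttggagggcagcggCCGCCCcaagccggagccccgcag
Kcnq5: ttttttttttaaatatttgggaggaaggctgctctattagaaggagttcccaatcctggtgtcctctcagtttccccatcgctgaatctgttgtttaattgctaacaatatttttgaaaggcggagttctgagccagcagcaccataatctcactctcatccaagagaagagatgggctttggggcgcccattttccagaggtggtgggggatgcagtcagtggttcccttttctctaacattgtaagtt
Kcnh7: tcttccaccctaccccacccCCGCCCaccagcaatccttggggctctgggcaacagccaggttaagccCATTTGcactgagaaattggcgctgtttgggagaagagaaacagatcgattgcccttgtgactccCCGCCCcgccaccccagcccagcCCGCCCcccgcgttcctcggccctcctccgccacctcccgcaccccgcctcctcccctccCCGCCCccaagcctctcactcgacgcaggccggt
Kcnj13: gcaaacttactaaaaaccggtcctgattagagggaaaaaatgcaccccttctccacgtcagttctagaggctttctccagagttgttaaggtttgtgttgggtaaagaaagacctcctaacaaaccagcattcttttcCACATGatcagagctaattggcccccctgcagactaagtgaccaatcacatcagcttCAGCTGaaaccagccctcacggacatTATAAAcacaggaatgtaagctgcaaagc

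The Kcnc4 window was 68% G or C and the Kcnh7 window 67.6%, against 44.4% for Kcnq5 and 45.2% for Kcnj13. Kcnc4 and Kcnh7 each held a GC box and an E-box, Kcnj13 held a TATA box and E-boxes, and the Kcnq5 window held no match to any of the 4 motifs. Of the 77 members, 55 matched a promoter of the table. The GC box lay in 28 of these 55 windows (50.9%), against 32.9% of 27025 windows of all genes. The E-box lay in 37 windows (67.3%), against 66.0% of all genes. The TATA box lay in 2 windows (3.64%), against 13.0% of all genes, and the cyclic AMP response element in 0, against 1.62% of all genes. A match describes letters and was not tested as a binding site, and matches of different motifs were allowed to overlap.

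The libraries held 48131900 UMIs (aged ethanol), 45995677 (aged vehicle), 58305713 (young ethanol) and 52807139 (young vehicle) over 2642 to 2881 spots. Members made up 0.274%, 0.267%, 0.291% and 0.269% of those UMIs in that order. Mitochondrially encoded genes took 16.5%, 13.6%, 14.3% and 13.8%. Of the spot barcodes, 1205 occurred in all 4 libraries, 986 in 3, 1290 in 2 and 706 in 1. Clusters of spots, built without any Kcn gene or related channel gene, were named only where marker lists allowed. These were dentate granule (led by Dsp and C1ql2), CA3 (Cldn22, Slc9a4), CA1 (Lefty1, Fibcd1), upper neocortex (Gm765, Lamp5), deep neocortex (Ccn2, Cplx3), thalamus (Prkcd, Tnnt1), hypothalamus (Hcrt, Oxt), white matter (C4b, Klk6), striatum, choroid plexus, meninges and large vessels, habenula and reticular thalamus. Other clusters keep the names of their 2 leading genes, such as Vsig2-Fezf2, Igfn1-Trim54 and Ctxn3-Gbx2. The hippocampal fields were the smallest of the regions compared, with 26 to 39 spots per library for dentate granule, 19 to 38 for CA3 and 57 to 73 for CA1. Summed UMIs per library ran from 660415 to 1396066 in dentate granule, 683185 to 1241731 in CA3 and 1682861 to 1871185 in CA1, so low genes are measured least well there. The make-up of the sections differed with the gavage, and thalamus took 326 spots in the aged ethanol library and 196 in the aged vehicle library, 359 in the young ethanol library and 179 in the young vehicle library. Levels below are UMIs of the gene per 1000000 UMIs of the region or section (CPM), and lists of 4 values follow the order aged ethanol, aged vehicle, young ethanol and young vehicle.

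Over whole sections, members with most UMIs of their family are given first for the voltage-gated families. Kcna2, a Kv1 delayed rectifier of axons, stood at 100.04, 84.3, 109 and 88.8 CPM. Kcnc1, a Kv3 channel that lets neurons fire fast, had 131, 106, 131 and 105 CPM, with both ethanol libraries above both vehicle libraries. Kcnd2, a Kv4 channel of the transient A-type current, had 77.7, 73.96, 82.4 and 69.2 CPM. Kcnh3, of the ether-a-go-go-like group, had 57.4, 55.4, 53.03 and 62.5 CPM, and these values lay close together. Among silent subunits, which alter Kv2 channels but form none alone, Kcnf1 had 72.5, 77.1, 71.02 and 77.03 CPM. Kcng1 had 18.99, 19.9, 10.7 and 20.2 CPM, Kcns2 had 20.3, 17.98, 19.1 and 16.5 CPM and Kcnv1 had 29.02, 34.2, 29.9 and 37.8 CPM. For Kcng1 the young ethanol library was the lowest of the 4. Auxiliary subunits were led by Kcnab2, a cytoplasmic beta subunit of Kv1 channels, at 183, 168, 195 and 166 CPM. Kcnip2, a calcium-binding partner of Kv4, had 103, 133, 115 and 129 CPM, and Kcne1l, a single-pass subunit, had 5.96, 7.74, 6.53 and 6.78 CPM. The library with the highest Kcnip2 was aged vehicle.

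Outside the voltage-gated families, Kcnj10, the inward rectifier of astrocytes, stood at 127, 101, 118 and 109 CPM. Kcnk1, a tandem pore-domain channel, stood at 87.6, 108, 118 and 109 CPM. Kcnma1, the pore of the large-conductance calcium-activated channel, had 66.6, 51.8, 61.6 and 54.7 CPM, and all 3 genes were detected in every library. Kcnmb4, a beta subunit of that channel in neurons, had 75.00, 84.2, 84.6 and 87.00 CPM. Kcnn2, a small-conductance calcium-activated channel, had 24.1, 32.4, 29.4 and 34.6 CPM, with both ethanol libraries below both vehicle libraries. Kcnt1, a sodium-activated channel, had 39.6, 51.9, 49.5 and 48.2 CPM. Kcnu1, known for its part in sperm, had 2.83, 3.76, 3.58 and 3.03 CPM. By family, the inward rectifiers held 13.5% of the members' UMIs (13 genes), Kcnc 11.1% (4 genes), Kcnab 10.7% (3 genes), Kcnip 10.7% (4 genes), Kcnq 9.41% (5 genes), Kcnk 8.05% (10 genes) and Kcna 7.04% (5 genes). The heat map of levels by region shows how far members of one family parted between regions.

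**Figure D1:**
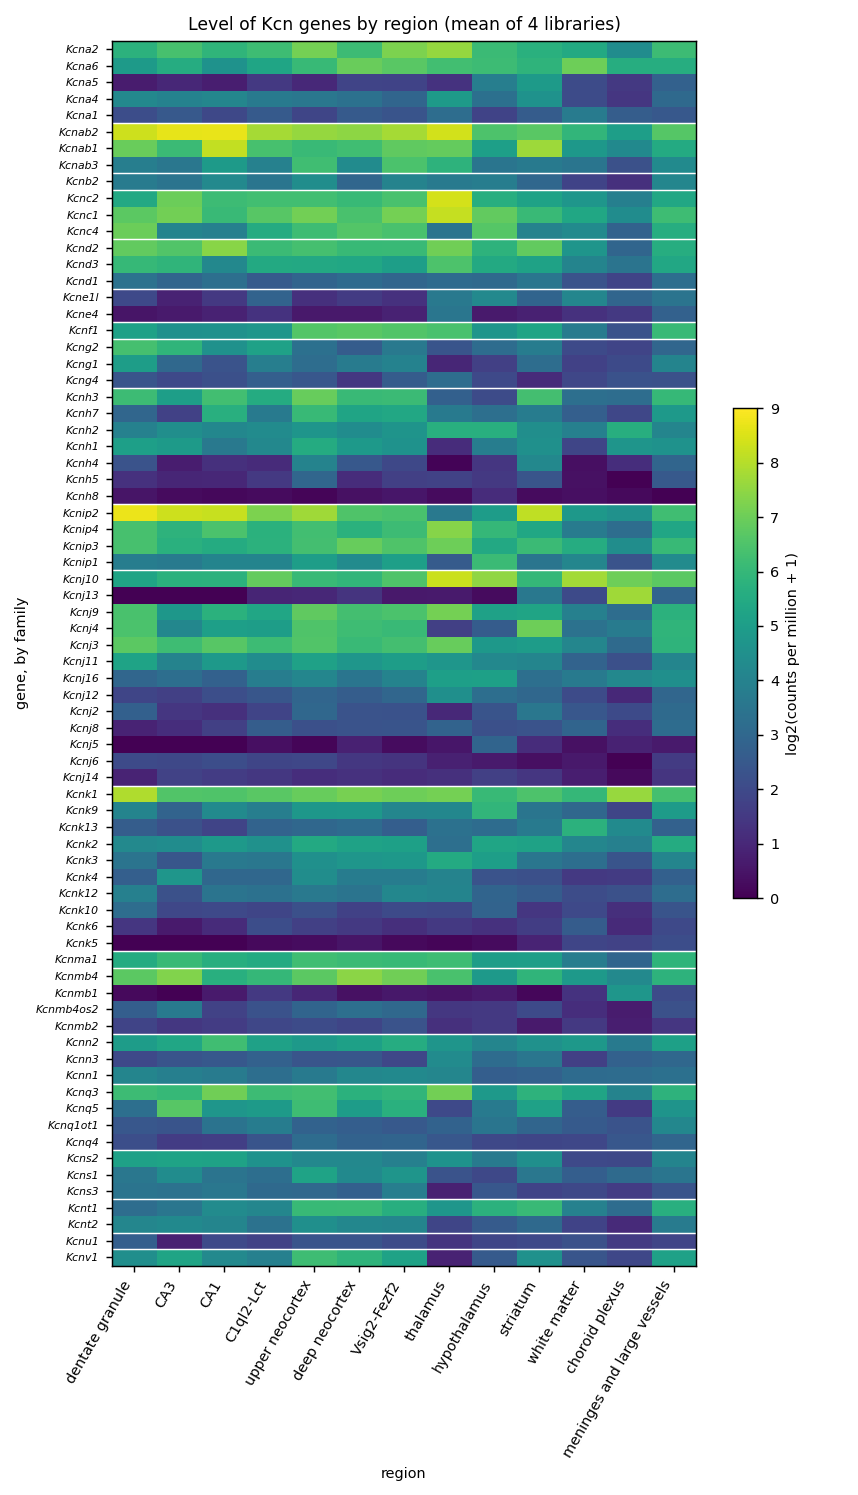
Heat map of Kcn genes (rows, by family) in 13 regions (columns); colour is log2(mean CPM + 1) over the 4 libraries. Rows are read across regions, not against each other: Kcnj13 and Kcnmb1 are bright in the choroid plexus column, Kcnc2 in the thalamus column and Kcnk13 in the white matter column.

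Across the 19 regions with at least 10 spots in every library and a median of at least 5000 UMIs per spot, thalamus was the highest region for 14 of 77 members. Dentate granule and upper neocortex were highest for 8 each, the Ctxn3-Gbx2 cluster for 6, and CA1, CA3 and the Igfn1-Trim54 cluster for 5 each. Choroid plexus held the lowest mean of many neuronal channel genes, among them Kcna2, Kcnc1 and Kcnq5. Often the highest region did not separate from the next: the library values of Kcnk2 in the Rspo2-Wfdc18 cluster, 38.7, 47.3, 52.01 and 43.2 CPM, overlapped those in meninges and large vessels, 51.01, 44.8, 36.8 and 48.6 CPM. The order was also unsettled for Kcna6, whose values in white matter overlapped those in deep neocortex, and for Kcnd3, whose values in thalamus overlapped those in the Igfn1-Trim54 cluster. These orders describe the levels and carry no test.

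Between the hippocampal fields, the sharpest differences were in a Kv3 gene, an M-current gene and an ERG gene. Kcnc4 was high in dentate granule spots, Kcnq5 in CA3 spots and Kcnh7 in CA1 spots. The silent subunits Kcng1 and Kcng2 and the Kv4 gene Kcnd3 were higher in dentate granule than in CA1. Kcnab1, a beta subunit of Kv1 channels, was higher in CA1 than in either of the other fields. Differences between regions were tested with edgeR's quasi-likelihood test on UMI sums per region and library with the library as a block, and called at an adjusted p (Benjamini-Hochberg, over all genes tested) below 0.05 and a fitted difference of at least 2-fold. P-values rest on counting error and on a spread between these 4 libraries that edgeR estimates with the help of all genes. They need not follow the SD of a single gene, and the libraries also differ in age and gavage. The filter on low counts passed a gene if either region alone held enough counts. Passing through a single region is noted below for some genes only. It also held for others, such as Kcng1 and Kcnh7 in dentate granule against CA1. For genes nearly absent from the other region, the p-value is no support beyond the counts themselves. In bulk sums of spots, fewer cells of a type and less RNA per cell cannot be told apart.

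In dentate granule against CA1, 7 of 52 tested members were higher and 8 lower, where 5.51% and 5.22% of all tested genes were called in those directions. The other 25 members did not pass the filter on low counts. Kcnc4, a Kv3 channel, had 142, 115, 121 and 126 CPM in dentate granule and 17.1, 12.8, 13.7 and 13.4 CPM in CA1, a fitted log2 difference of 2.98 (SD over libraries 0.07, adjusted p = 9.49e-18). Its lowest dentate value lay far above its highest CA1 value. Kcng1 had 33.7, 24.2, 32.1 and 34.7 CPM in dentate granule and 6.41, 2.91, 2.97 and 3.35 CPM in CA1, a fitted log2 difference of 2.79 (SD over libraries 0.48, adjusted p = 3.55e-10). Kcnd3 had 80.2, 49.97, 69.2 and 58.99 CPM in dentate granule and 18.7, 21.5, 15.4 and 13.4 CPM in CA1, a fitted log2 difference of 1.77 (SD over libraries 0.46, adjusted p = 2.19e-10). Neither gene overlapped between the fields in any pair of libraries. Kcng2 (1.66), Kcnh1 (1.38), Kcnj4 (1.26) and Kcnk1 (1.25) were the other genes called higher, with fitted log2 differences in brackets. Kcnj4 encodes a strong inward rectifier and Kcnh1 the ether-a-go-go channel itself.

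Of the genes lower in dentate granule than in CA1, Kcnh7, an ERG-type Kv channel, had 5.73, 7.57, 9.06 and 4.63 CPM in dentate granule and 53.98, 44.3, 60.6 and 44.2 CPM in CA1, a fitted log2 difference of -3.09 (SD over libraries 0.36, adjusted p = 2.27e-13). Kcnq5, an M-current subunit, had 5.73, 13.6, 6.59 and 9.25 CPM in dentate granule and 21.4, 22.7, 32.7 and 26.3 CPM in CA1, a fitted log2 difference of -1.82 (SD over libraries 0.67, adjusted p = 7.30e-07). Both were lower in dentate granule in every library, without overlap. Kcnt1, a sodium-activated channel, had 7.16, 12.1, 5.77 and 8.10 CPM in dentate granule and 18.2, 23.3, 23.2 and 12.3 CPM in CA1, a fitted log2 difference of -1.43 (SD over libraries 0.60, adjusted p = 6.88e-05), and its highest dentate value lay just under its lowest CA1 value. Kcnn2 (-1.42), Kcnab1 (-1.40), Kcnab3 (-1.40), Kcnq1ot1 (-1.33) and Kcnq3 (-1.07) were also called lower. The calls of Kcnq3 without the TMM factor or without the young ethanol library, and of Kcnq1ot1 in DESeq2, did not hold. The median fitted log2 difference was -0.20 over tested members and 0.00 over all 5132 tested genes.

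In CA3 against CA1, 8 of 51 tested members were higher and 11 lower, where 3.45% and 3.61% of all tested genes were called. Kcnq5 had 89.3, 117, 96.3 and 97.8 CPM in CA3 and 21.4, 22.7, 32.7 and 26.3 CPM in CA1, a fitted log2 difference of 1.96 (SD over libraries 0.33, adjusted p = 5.10e-20). Kcnk4, a mechanically gated tandem pore-domain channel, had 33.7, 16.1, 25.1 and 27.6 CPM in CA3 and 7.48, 12.2, 4.75 and 3.91 CPM in CA1, a fitted log2 difference of 1.80 (SD over libraries 1.07, adjusted p = 3.31e-07). The fields did not overlap for either gene, though Kcnk4 came closest in the aged vehicle library. Kcnd3 had 60.01, 56.4, 55.8 and 59.6 CPM in CA3 and 18.7, 21.5, 15.4 and 13.4 CPM in CA1, a fitted log2 difference of 1.73 (SD over libraries 0.32, adjusted p = 8.61e-14). Kcnmb4, the neuronal beta subunit of the large-conductance calcium-activated channel, had 146, 147, 181 and 154 CPM in CA3 and 44.4, 57.7, 41.00 and 56.5 CPM in CA1, a fitted log2 difference of 1.62 (SD over libraries 0.36, adjusted p = 1.44e-20). In both of these genes CA3 was higher in all 4 libraries. Kcng2 (1.34), Kcnh1 (1.298), Kcnv1 (1.04) and Kcna6 (1.01) were called higher with smaller differences.

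Lower in CA3 than in CA1 were Kcnh7, Kcnab1 and Kcnk9 by the widest margins. Kcnh7 had 3, 3, 0 and 3 UMIs (4.39, 2.42, 0 and 2.67 CPM) in CA3, against 101, 76, 102 and 79 UMIs (53.98, 44.3, 60.6 and 44.2 CPM) in CA1, with an adjusted p of 8.59e-20 by edgeR. The young ethanol library held none in CA3, and Kcnh7 passed the filter through CA1 alone. Kcnab1 had 60.01, 79.7, 64.2 and 75.6 CPM in CA3 and 286, 278, 307 and 272 CPM in CA1, a fitted log2 difference of -2.00 (SD over libraries 0.25, adjusted p = 3.53e-28). Kcnk9, an acid-sensitive tandem pore-domain channel, had 4.39, 8.86, 5.58 and 6.23 CPM in CA3 and 17.6, 28.5, 10.1 and 18.4 CPM in CA1, a fitted log2 difference of -1.58 (SD over libraries 0.49, adjusted p = 1.22e-05). Neither overlapped between the fields. Kcnh3 (-1.26) was also called lower, and others called lower included Kcnab3 (-1.39), Kcnk3 (-1.33), Kcnq1ot1 (-1.29), Kcnq3 (-1.01) and Kcnj9 (-1.01). Kcnk12 had 0, 3, 5 and 6 UMIs in CA3 and 15, 17, 20 and 19 UMIs in CA1. Of the lower calls, Kcnab3, Kcnj9, Kcnk12, Kcnk3, Kcnq1ot1 and Kcnq3 did not hold with clusters at a finer resolution, nor did the higher call of Kcnv1. DESeq2 did not call Kcnk12, Kcnk3 or Kcnq1ot1, and Kcna6 was not called with no filter on low counts. Leaving out 1 library ended the call of Kcnq3 (young vehicle, young ethanol or aged ethanol), Kcna6 (young vehicle), Kcnv1 (young ethanol), Kcnq1ot1 (aged vehicle), and Kcnj9 and Kcnk3 (aged ethanol). The median log2 difference was -0.05 over tested members and -0.01 over all 4956 tested genes.

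In dentate granule against CA3, 6 of 44 tested members were higher and 5 lower, where 6.76% and 5.12% of all tested genes were called. Without the TMM factor, the median log2 difference of all genes was 0.15 in this comparison, against 0.01 with it, and 0.15 in dentate granule against CA1, against 0.00 with it. The split here was then 7 higher and 3 lower. Among the higher calls Kcnc4 again had the largest fitted difference, with the dentate values above and 13.2, 19.3, 12.6 and 16.9 CPM in CA3, a fitted log2 difference of 2.82 (SD over libraries 0.38, adjusted p = 3.90e-59). Kcnj4 had 95.3, 75.7, 89.00 and 85.6 CPM in dentate granule and 16.1, 14.5, 19.5 and 17.8 CPM in CA3, a fitted log2 difference of 2.19 (SD over libraries 0.16, adjusted p = 2.80e-30). Kcng1 had 8.78, 7.25, 5.58 and 7.11 CPM in CA3, against 31.2 ± 4.76 CPM in dentate granule (mean ± SD, n = 4), a fitted log2 difference of 1.95 (SD over libraries 0.35, adjusted p = 4.79e-10). All 3 genes were higher in dentate granule in each library. Kcnj9, a subunit of G protein-gated (GIRK) channels, had a fitted log2 difference of 1.57, Kcnk1 of 1.24 and Kcnj11, the pore of ATP-sensitive channels, of 1.07.

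Kcnq5 was far lower in dentate granule than in CA3, at 5.73, 13.6, 6.59 and 9.25 CPM in dentate granule and 89.3, 117, 96.3 and 97.8 CPM in CA3, a fitted log2 difference of -3.71 (SD over libraries 0.41, adjusted p = 6.87e-69). Kcnk4 had 5.73, 1.51, 7.42 and 8.10 CPM in dentate granule and 33.7, 16.1, 25.1 and 27.6 CPM in CA3, a fitted log2 difference of -2.28 (SD over libraries 0.79, adjusted p = 1.69e-11). Kcnc2, a Kv3 channel, had 34.4, 56.03, 38.7 and 39.3 CPM in dentate granule and 113, 157, 123 and 108 CPM in CA3, a fitted log2 difference of -1.72 (SD over libraries 0.13, adjusted p = 4.04e-35). None of these overlapped between the fields. Kcnv1 (-1.01) and Kcns1 (-1.003), both silent subunits, sat at the 2-fold threshold. Both calls were lost without the TMM factor, without the young ethanol library and at a finer clustering, and that of Kcns1 also in DESeq2, in the joint fit, without the aged vehicle library or with no library block. The Kcnv1 call was lost too without the young vehicle or the aged ethanol library, and the Kcnj11 call without aged ethanol and at a finer clustering. The 3 comparisons share the same CA1, CA3 and dentate granule sums.

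**Figure D2:**
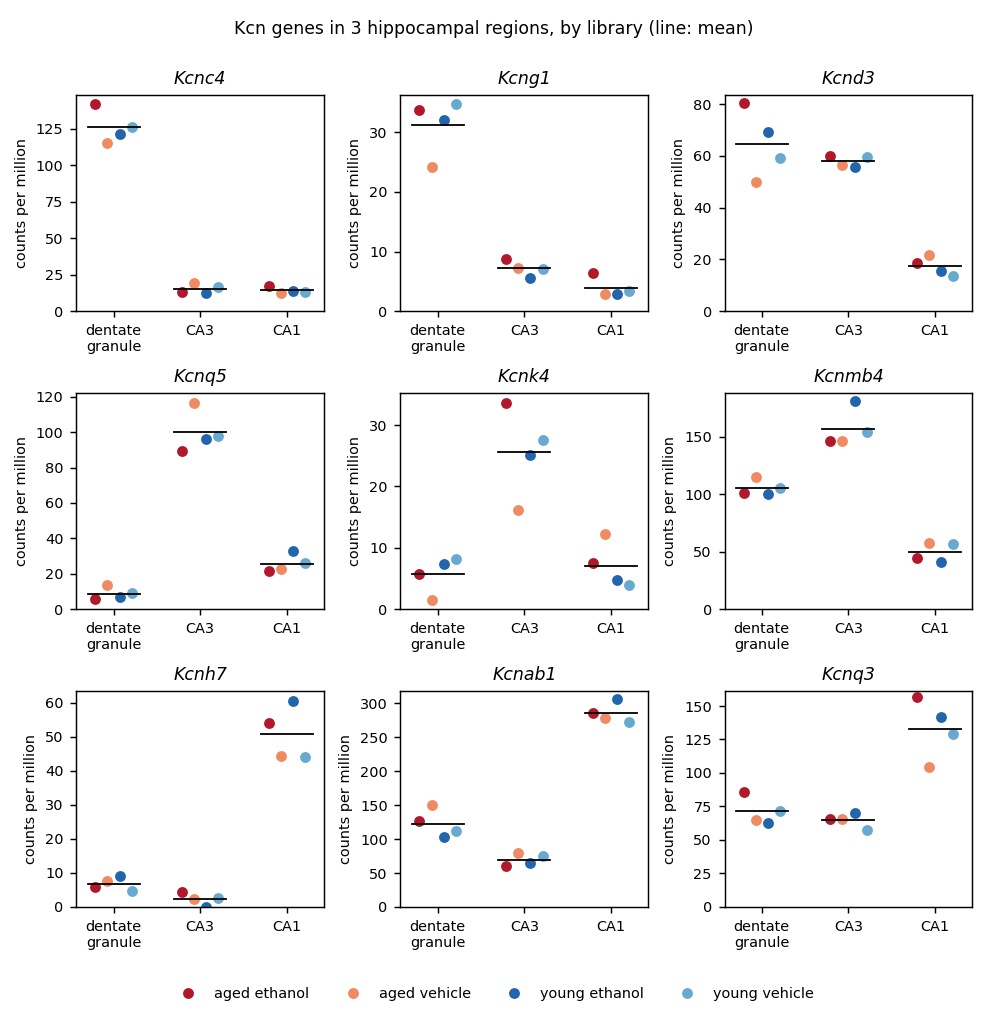
CPM of 9 Kcn genes (linear axis, one panel per gene) in dentate granule, CA3 and CA1 spots; points are the 4 libraries and lines their means. Kcnc4 lies above 100 CPM in dentate granule and below 20 CPM in the other fields, Kcnq5 is highest in CA3, and Kcnh7 and Kcnab1 are highest in CA1.

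White matter spots held less of most channel transcripts than neocortex, as upper and deep neocortex summed. This sum left out clusters named by leading genes, such as Vsig2-Fezf2 and Igfn1-Trim54, of which the latter scored highest on the upper neocortex markers. In white matter 44 of 71 tested members were lower and 8 higher, where 16.2% and 18.2% of all tested genes were called. The median log2 difference was -1.26 over tested members and 0.00 over all 6489 tested genes, and without the TMM factor -1.46 and -0.20. The 4 neuronal markers (Snap25, Syt1, Rbfox3, Slc17a7) summed to 746 to 863 CPM in white matter, against 5121 to 5848 CPM in upper and 4987 to 5417 CPM in deep neocortex. Their part in the lower members was not tested. All 3 Kcnab genes were called lower, and so were Kcnc1, Kcnc2, Kcnc4 and Kcnb2.

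Kcnv1, a silent subunit, had 4.97, 4.55, 3.03 and 3.96 CPM in white matter and 54.9, 70.2, 64.8 and 71.5 CPM in neocortex, a fitted log2 difference of -3.78 (SD over libraries 0.41, adjusted p = 8.18e-13). Kcnh1 had 1.07, 2.53, 2.70 and 4.36 CPM in white matter and 40.6, 35.9, 39.4 and 36.5 CPM in neocortex, a fitted log2 difference of -3.65 (SD over libraries 0.91, adjusted p = 9.01e-11). Both were lower in white matter in every library without overlap, and Kcnh1 passed the filter through neocortex alone. Kcnh4, of the ether-a-go-go-like group, had 0, 0, 1 and 2 UMIs in white matter, against 72, 67, 121 and 144 UMIs (9.57, 8.82, 10.6 and 13.1 CPM) in neocortex, with an adjusted p of 2.19e-08 by edgeR. It passed the filter through neocortex alone. Kcnh5 (-3.62), Kcnh3 (-3.27), Kcnq5 (-3.15), Kcnh7 (-2.98), Kcnk4 (-2.97), Kcnj4 (-2.90) and Kcnf1 (-2.82) followed on the log2 scale. The Kcnh5 call was lost in the joint fit and at a finer clustering. The axonal Kv1 gene Kcna2 (-1.14) was lower too, a call that did not hold at a finer clustering. Kcna6, another Kv1 gene, had 134, 117, 143 and 116 CPM in white matter and 85.5, 92.7, 88.7 and 91.8 CPM in neocortex and was not called (0.71).

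The 8 members higher in white matter were Kcne1l, Kcnk5, Kcnk13, Kcna1, Kcnj10, Kcnj13, Kcnk6 and Kcna5. Kcnk13, a tandem pore-domain channel known from microglia, had 57.9, 58.6, 49.9 and 47.9 CPM in white matter and 8.11, 6.98, 6.95 and 7.09 CPM in neocortex, a fitted log2 difference of 3.07 (SD over libraries 0.14, adjusted p = 4.19e-13). Its libraries lay close together in both regions. All 5 microglial markers were found, and they summed to 430.4 to 1020.3 CPM in white matter, against 175 to 183 CPM in upper and 155 to 220.3 CPM in deep neocortex, and their part in the result was not tested. Within white matter those markers were higher in both ethanol libraries than in both vehicle libraries, while Kcnk13 was higher in both aged than in both young libraries. Kcne1l had 11.7, 19.2, 13.5 and 21.4 CPM in white matter and 2.13, 1.97, 1.06 and 1.36 CPM in neocortex, a fitted log2 difference of 3.55 (SD over libraries 0.65, adjusted p = 7.67e-10). It passed the filter through white matter alone. Kcnj10 had 201, 219, 216 and 217 CPM in white matter and 72.2, 57.01, 62.8 and 65.2 CPM in neocortex, a fitted log2 difference of 1.93 (SD over libraries 0.19, adjusted p = 4.20e-13). Neither gene overlapped between the regions, and astrocyte markers also summed higher in white matter (3191 to 3559.8 CPM) than in upper (2493 to 2686 CPM) or deep neocortex (2033 to 2254 CPM), with their part not tested. The white matter markers, by which the region was named, summed to 38024 to 43863 CPM there. They summed to 1556 to 2029 CPM in upper and 5274 to 7100 CPM in deep neocortex, and their part was not tested either.

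Kcnk5, an alkali-activated tandem pore-domain channel, was at low level, with 6, 7, 7 and 7 UMIs in white matter and 2, 2, 6 and 2 UMIs in neocortex, a fitted log2 difference of 3.18 (SD over libraries 0.81, adjusted p = 2.03e-05). It passed the filter through white matter alone. Kcna1, the Kv1 channel of juxtaparanodes along myelinated axons, had 16.7, 9.60, 15.8 and 7.52 CPM in white matter and 4.12, 2.37, 3.43 and 4.73 CPM in neocortex, a fitted log2 difference of 1.94 (SD over libraries 0.71, adjusted p = 2.61e-06). White matter was higher in each library, by least in young vehicle. Kcnk6 (1.47), Kcnj13 (1.62) and Kcna5 (1.02) completed the higher calls. Kcnk5, Kcnk6, Kcnj13 and Kcna5 lost their calls in a joint fit over all regions, and Kcnj13 and Kcna5 also when the young vehicle or the aged vehicle library was left out. The Kcna5 call was lost too in DESeq2, without the TMM factor, with no filter on low counts and at a finer clustering. Choroid plexus markers summed to 728 to 2552 CPM in white matter, and their part in the Kcnj13 call was not tested.

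Kcne4, Kcne1l, Kcnj10 and the Kv3 genes Kcnc1 and Kcnc2 were higher in thalamus than in neocortex, and Kcnv1, Kcnj4 and Kcnh4 were lower and nearly missing there. Members of the inward rectifier and Kv4 partner families were called in both directions. Against neocortex, 16 of 72 tested members were higher in thalamus and 21 lower, where 9.15% and 10.6% of all tested genes were called. Kcne4, a single-pass subunit that restrains Kv1 channels, had 13.7, 11.1, 10.4 and 7.14 CPM in thalamus and 1.06, 0.263, 0.528 and 0.273 CPM in neocortex, a fitted log2 difference of 4.34 (SD over libraries 0.72, adjusted p = 1.28e-12). Kcne1l had 10.3, 12.8, 10.4 and 12.4 CPM in thalamus and 2.13, 1.97, 1.06 and 1.36 CPM in neocortex, a fitted log2 difference of 2.91 (SD over libraries 0.47, adjusted p = 3.27e-11). Both were higher in thalamus in every library, and both passed the filter through thalamus alone. Kcnj10 had 314, 285, 274 and 365 CPM in thalamus and 72.2, 57.01, 62.8 and 65.2 CPM in neocortex, a fitted log2 difference of 2.32 (SD over libraries 0.18, adjusted p = 1.40e-19), while astrocyte markers summed to 2726 to 2933 CPM in thalamus, a part in the result that was not tested. Its usual partner Kcnj16 was higher as well (1.22).

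Among Kv3 genes, Kcnc2 had 332, 350.4, 357 and 326 CPM in thalamus and 65.8, 73.99, 80.2 and 70.5 CPM in neocortex, a fitted log2 difference of 2.29 (SD over libraries 0.07, adjusted p = 3.58e-20). Kcnc1 had 350.5, 280.2, 302 and 255 CPM in thalamus and 123, 112, 109 and 103 CPM in neocortex, a fitted log2 difference of 1.47 (SD over libraries 0.10, adjusted p = 3.47e-16). Kcnc4 went the other way, with 6.07, 11.1, 7.90 and 14.8 CPM in thalamus and 89.4, 80.97, 79.5 and 80.5 CPM in neocortex, a fitted log2 difference of -3.13 (SD over libraries 0.62, adjusted p = 1.38e-16). Genes of this family were thus called in both directions within one comparison. Other members called higher included Kcnn3 (2.31), Kcnj12 (1.92), Kcna4 (1.53), Kcng4 (1.39), Kcnip4 (1.38), Kcna1 (1.26), Kcnh2 (1.23), Kcnd3 (1.19) and Kcnq3 (1.11). The Kcna1 call did not hold at a finer clustering or without the aged ethanol library, whose thalamus value of 14.2 CPM was the highest of the 4.

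Of the members lower in thalamus, Kcnv1 had 0.674, 0.428, 0.705 and 1.43 CPM in thalamus and 54.9, 70.2, 64.8 and 71.5 CPM in neocortex, a fitted log2 difference of -6.31 (SD over libraries 0.70, adjusted p = 3.33e-20). Kcnv1 had very few UMIs in thalamus and passed the filter through neocortex alone. Its fitted size is therefore uncertain, and its p-value adds no support beyond the counts. Kcnj4 had 2.47, 1.71, 1.97 and 2.86 CPM in thalamus and 86.2, 89.00, 82.2 and 75.2 CPM in neocortex, a fitted log2 difference of -5.17 (SD over libraries 0.42, adjusted p = 1.47e-20). Kcnh4 had 1, 0, 0 and 0 UMIs in thalamus, against 72, 67, 121 and 144 UMIs in neocortex, with an adjusted p of 1.44e-12 by edgeR. So 3 of the 4 thalamus sums held no Kcnh4 at all, and the gene passed the filter through neocortex alone. Kcnh1 (-4.81), Kcnq5 (-4.09), Kcnh3 (-4.01), Kcnip2 (-3.86) and Kcng1 (-3.82) were lower by a fitted log2 difference beyond that of Kcnc4. Kcnq3 and Kcnq5, which both form M-current channels, were thus called in opposite directions, and so were the Kv4 partners Kcnip4, higher, and Kcnip1 (-2.44) and Kcnip2, lower. The median log2 difference was -0.07 over tested members and -0.01 over all 6613 tested genes.

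In hypothalamus against neocortex, 8 of 70 tested members were higher and 27 lower, where 8.13% and 8.58% of all tested genes were called. The median log2 difference was -0.57 over tested members and 0.01 over all 6505 tested genes. The 4 neuronal markers, among them the cortical glutamate transporter gene Slc17a7, summed to 1179 to 1703 CPM in hypothalamus, and their part was not tested. Kcnj5, a GIRK subunit, had 30, 15, 27 and 11 UMIs in hypothalamus (9.02, 5.64, 6.71 and 4.72 CPM), against 4, 5, 2 and 3 UMIs in neocortex, a fitted log2 difference of 4.02 (SD over libraries 0.88, adjusted p = 2.00e-07). Kcne1l had 16.8, 26.7, 17.1 and 11.6 CPM in hypothalamus and 2.13, 1.97, 1.06 and 1.36 CPM in neocortex, a fitted log2 difference of 3.48 (SD over libraries 0.51, adjusted p = 3.23e-09). Kcna5, a Kv1 channel, had 9.92, 19.6, 12.4 and 11.2 CPM in hypothalamus and 2.13, 1.05, 2.55 and 1.09 CPM in neocortex, a fitted log2 difference of 2.90 (SD over libraries 0.95, adjusted p = 4.26e-07). No library overlapped between the regions for any of the 3, and all 3 passed the filter through hypothalamus alone. Kcnj10 (1.48), Kcnip1 (1.39), Kcnj16 (1.26), Kcnk9 (1.20) and Kcnh2 (1.17) were the rest of the higher calls.

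Kcnh3 was lowest relative to neocortex, with 3.61, 1.88, 4.47 and 2.57 CPM in hypothalamus and 100.40, 91.4, 93.5 and 98.7 CPM in neocortex, a fitted log2 difference of -4.84 (SD over libraries 0.53, adjusted p = 8.40e-13). Kcnj4 had 3.91, 4.89, 4.47 and 7.29 CPM in hypothalamus, a fitted log2 difference of -4.05 (SD over libraries 0.48, adjusted p = 2.95e-12), and Kcnv1 had 5.41, 6.39, 3.98 and 3.86 CPM, a fitted log2 difference of -3.71 (SD over libraries 0.42, adjusted p = 9.20e-12). Their neocortex values are given above, and neither gene overlapped. Kcnj3 (-1.58) and Kcnj9 (-1.50), which form GIRK channels, were called lower while Kcnj5 was called higher. Kcns1 (-3.28), Kcnh4 (-2.66), Kcnh7 (-2.54) and Kcnip2 (-2.35) were also lower. Thalamus, hypothalamus and white matter were all set against the same neocortex sums, so a gene low in each of them is not an independent repeat.

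**Figure D3:**
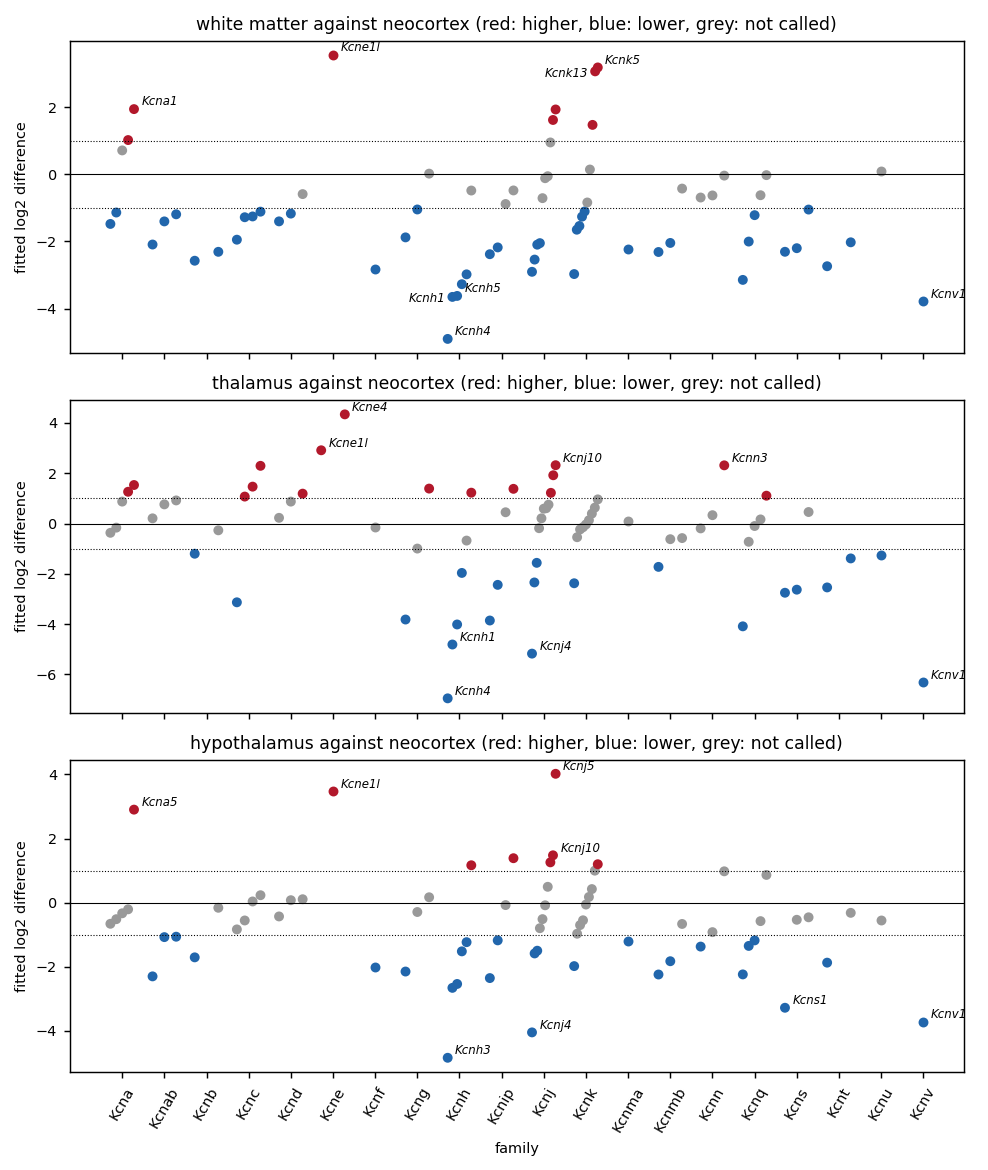
Fitted log2 difference (y axis) of each tested Kcn gene against neocortex in white matter, thalamus and hypothalamus, by family (x axis); red points were called higher, blue lower and grey neither, with dotted lines at 1 and -1. White matter shows 44 lower and 8 higher, thalamus 21 lower and 16 higher, hypothalamus 27 lower and 8 higher.

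Within neocortex, 7 of 67 tested members were higher in upper than in deep spots and 0 were lower, where 2.49% and 2.75% of all tested genes were called. By edgeR at an unadjusted p under 0.05 and no minimum of size, 34 members were higher and 13 lower, and DESeq2 also called 0 lower. The shares of all genes at that looser threshold were not computed, so these counts show only that some members were lower. Kcnh5, an ether-a-go-go channel, had 7.31, 6.40, 6.68 and 7.01 CPM in upper and 1.08, 1.19, 1.62 and 1.03 CPM in deep neocortex, a fitted log2 difference of 2.44 (SD over libraries 0.34, adjusted p = 2.32e-07). Kcnab3, a beta subunit of Kv1 channels, had 60.8, 76.5, 92.2 and 67.01 CPM in upper and 18.7, 16.9, 20.6 and 21.8 CPM in deep neocortex, a fitted log2 difference of 1.90 (SD over libraries 0.30, adjusted p = 3.36e-13). Kcnh4 had 13.8, 13.5, 14.6 and 18.6 CPM in upper and 5.15, 2.96, 4.16 and 6.17 CPM in deep neocortex, a fitted log2 difference of 1.70 (SD over libraries 0.33, adjusted p = 3.42e-08). Upper values exceeded deep values for all 3 in every library. Kcnb2 (1.61), Kcng4 (1.29), Kcnq5 (1.25) and Kcnip2 (1.18) completed the list, and all 7 calls held in each alternative tried. The median log2 difference was 0.27 over tested members and 0.00 over all 6139 tested genes.

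Over all 7 region comparisons, 43 of 77 members were tested in each comparison. Kcnd1, Kcnj8, Kcnj14, Kcnk10 and Kcnmb2 were tested and called in none. Kcnh8 and Kcnmb1 passed the filter on low counts in no comparison. Members called higher in some comparisons and lower in others included Kcnc4, Kcnq5, Kcnj4 and Kcnip1. Since members that pass the filter through one region alone are those that differ, these calls describe the members tested and not all members.

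Related genes outside the Kcn set were followed from 5 lists, and each comparison's share of all genes called is given above. In white matter, genes called lower were 3 of 9 auxiliary subunit genes, 4 of 6 clustering genes, 2 of 4 HCN genes, 4 of 7 genes upstream of GIRK channels and 3 of 7 pump and cotransport genes, against 0, 1, 1, 0 and 3 higher in that order. In thalamus 1, 1, 2, 1 and 3 were higher and 2, 1, 1, 1 and 1 lower. In hypothalamus 1, 0, 2, 0 and 0 were higher and 0, 0, 0, 1 and 1 lower, and between upper and deep neocortex the 2 called, both higher, were Kctd8 and Rgs7. Of the hyperpolarization-activated HCN channels, which carry an inward pacemaker current, Hcn4 (fitted log2 difference 5.06, adjusted p = 1.09e-18) and Hcn2 (1.81, adjusted p = 1.46e-16) were higher in thalamus than in neocortex by edgeR. Hypothalamus had Hcn4 (2.22, adjusted p = 8.33e-05) and Hcn3 (1.49, adjusted p = 1.92e-07) higher by edgeR. Of 9 auxiliary subunit genes outside the set, Dpp6, a partner of Kv4 channels, was higher in thalamus (1.57, adjusted p = 1.23e-15) and in hypothalamus (1.65, adjusted p = 5.05e-11), and Dpp10 was lower in white matter (-2.32, adjusted p = 8.48e-13), by edgeR. Lrrc55, a gamma subunit of the large-conductance calcium-activated channel, was higher in CA3 than in CA1 (2.33, adjusted p = 2.50e-05) by edgeR.

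Among 6 genes that cluster or anchor Kv1 and M-current channels, Cntn2 was higher in white matter (3.01, adjusted p = 5.43e-16), and Cntnap2, Lgi1, Adam22 and Adam23 were lower there, by edgeR. Lgi1 was higher in dentate granule than in CA1 (1.48, adjusted p = 3.84e-15) and higher in CA3 than in CA1 (1.07, adjusted p = 8.63e-16), by edgeR. In dentate granule against CA1, Cntnap2 (-1.80, adjusted p = 1.81e-12), Adam23 (-1.26, adjusted p = 1.55e-08) and Cntn2 (-1.20, adjusted p = 9.42e-07) were lower by edgeR. Against CA3, Cntnap2 (-1.61, adjusted p = 1.05e-20) and Adam23 (-1.34, adjusted p = 2.31e-13) were lower in dentate granule by edgeR and none of the 6 was called higher. Of 7 genes acting upstream of GIRK channels, 4 were lower in white matter, and Gabbr2, a subunit of the GABA-B receptor, was higher in thalamus (1.27, adjusted p = 4.98e-15), by edgeR. Of 7 pump and cotransport genes, the glial pump subunit Atp1b2 (1.09, adjusted p = 4.88e-11) and the cotransporter Slc12a2 (3.15, adjusted p = 5.43e-16) were higher in white matter by edgeR. Slc12a5 (-2.14, adjusted p = 9.83e-14) and Atp1b1 were lower there.

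For 17 members the highest region was at least 4 times the median of the 19 regional means, and most of these are given here as levels with no test. In the choroid plexus, which secretes cerebrospinal fluid, Kcnj13 had 189, 331, 146 and 178 CPM. Kcnmb1, a beta subunit of the large-conductance calcium-activated channel known from smooth muscle, had 26.01, 22.4, 29.3 and 24.1 CPM there. For both genes the next region lay lower in every library, and the striatum value of Kcnj13 was 11.04 ± 15.9 CPM (mean ± SD, n = 4), where choroid plexus markers ranged over 951 to 19788 CPM. Kcnk13 was highest in white matter, Kcnh7 in upper neocortex at 66.3, 70.1, 60.97 and 65.5 CPM, and Kcne4, Kcnj10 and Kcnc2 in thalamus, all with the same highest region in at least 2 libraries. The Kcnc2 values of thalamus did not overlap those of its next region, the Ctxn3-Gbx2 cluster, at 214, 53.2, 202 and 67.6 CPM.

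Striatum was highest for Kcna5, at 22.5, 30.6, 28.6 and 34.3 CPM, and for Kcnh4, at 15.4, 14.9, 21.3 and 18.3 CPM. Kcna5 did not overlap its next region, hypothalamus, whereas Kcnh4 overlapped upper neocortex. The dentate granule region was highest for Kcng2, at 73.8, 72.7, 87.3 and 84.4 CPM, which overlapped CA3. Kcng1 was highest in the Cyp26b1-Lypd1 cluster, at 73.3, 84.7, 34.8 and 86.1 CPM. The silent subunits Kcng1 and Kcng2 thus had different highest regions. Kcnf1 had 169, 169, 174 and 185 CPM in the Igfn1-Trim54 cluster, above every library of its next region. Kcnab3 had 73.1, 86.7, 108 and 74.4 CPM in the Vsig2-Fezf2 cluster, which overlapped upper neocortex.

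Low counts limited the last of these. Kcnj5 had 10, 11, 14 and 12 UMIs in the Ctxn3-Gbx2 cluster, which is 5.80, 18.3, 7.74 and 21.4 CPM, and Kcnh8 had 1, 3, 4 and 1 UMIs there. Kcnk5 had 6, 7, 3 and 8 UMIs in meninges and large vessels, which overlapped its white matter values. These counts do not settle an order between regions.

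A pair of small regions stood outside the order, and the genes named in them were chosen after their values were seen. Habenula spots occurred in the ethanol libraries alone, with 21 spots in aged ethanol and 25 in young ethanol. Kcnma1 had 423 CPM there in aged ethanol and 330.3 CPM in young ethanol, and its highest mean in the 19 regions was 103 ± 7.06 CPM (SD, n = 4). Kcnip1 had 254 and 288 CPM in the same libraries, and Kcng4 172 and 110.1 CPM. For Kcnma1 both habenula values exceeded every library in every other region. For Kcnip1 and Kcng4 they exceeded every region but reticular thalamus, where Kcng4 had 66.3, 22.99, 135 and 17.2 CPM. Reticular thalamus held 34 spots in aged ethanol, 6 in aged vehicle, 44 in young ethanol and 18 in young vehicle. Kcnc1 had 390.0, 161, 419.6 and 338 CPM there and Kcnip1 210.1, 126, 319 and 176 CPM. Kcnh2, an ERG channel, had 151, 172, 177 and 238 CPM, which exceeded its thalamus values in every library (45.4, 43.6, 53.9 and 60.01 CPM). Kcnab3 (148, 126, 196 and 89.6 CPM) and Kcns3 (54.9, 34.5, 113 and 20.7 CPM) were also present.

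Between the study's groups few potassium channel genes passed the rule of size, among them Kcnj13 and Kcna1 over whole sections, Kcns3 in the hippocampal fields and Kcnn2 in white matter. Each group is 1 library, so no test was made, and the rule was a ratio of CPM of at least 2-fold either way with at least 50 UMIs in the library that had more. Intervals are exact 95% intervals for counting error only. Over whole sections, aged ethanol against aged vehicle passed the rule for 2 members, Kcna1 higher and Kcnj13 lower, where 1.68% of all genes passed. Young ethanol against young vehicle passed for Kcnj13 alone, lower, where 2.19% of all genes passed. Aged against young passed for 0 members in the ethanol libraries, where 0.492% of all genes passed, and for 0 in the vehicle libraries, where 0.357% passed. The median log2 ratio of members was 0.03 for ethanol against vehicle in aged and 0.15 in young sections, against -0.07 and 0.00 over all genes.

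**Figure D4:**
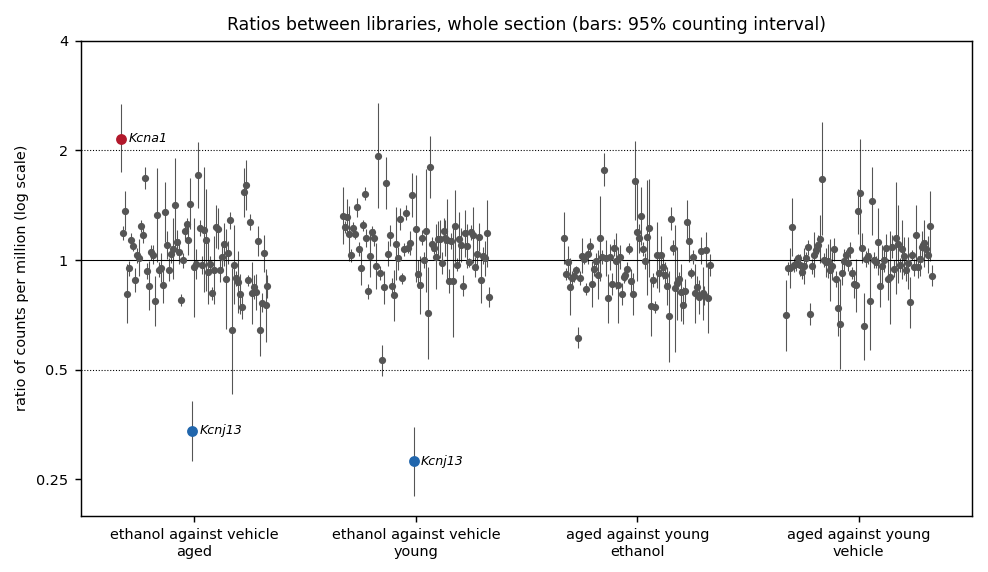
Ratio of whole-section CPM between libraries (y axis, log scale) for the Kcn genes in 4 comparisons (x axis); points are genes and bars 95% counting intervals, with dotted lines at 2-fold. Kcnj13 is below 0.5 in both ethanol comparisons and Kcna1 above 2 in the aged one.

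Kcnj13, the inward rectifier of the choroid plexus epithelium, had 3.20 CPM (95% interval 2.71 to 3.75; 154 UMIs) in the aged ethanol section, against 9.41 CPM (95% interval 8.55 to 10.3; 433 UMIs) in aged vehicle, a ratio of 0.340 (95% interval 0.281 to 0.409). In young sections it had 1.94 CPM (95% interval 1.60 to 2.33; 113 UMIs) with ethanol, against 6.91 CPM (95% interval 6.22 to 7.66; 365 UMIs) with vehicle, a ratio of 0.280 (95% interval 0.225 to 0.347). Both ethanol sections thus held less. Choroid plexus spots numbered 25 in aged ethanol and 42 in aged vehicle, 28 in young ethanol and 60 in young vehicle, and carried 70.7% to 79.6% of the Kcnj13 UMIs of each section. Summed choroid plexus markers ran the same way, at 1742 CPM in aged ethanol and 5747 CPM in aged vehicle, 1266 CPM in young ethanol and 4754 CPM in young vehicle. Their part in the result was not tested, and the plane of section cannot be told apart from the gavage.

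Within choroid plexus spots Kcnj13 had 189 CPM (95% interval 155 to 228; 109 UMIs) in aged ethanol and 331 CPM (95% interval 296 to 369; 325 UMIs) in aged vehicle. It had 146 CPM (95% interval 118 to 180.0; 90 UMIs) in young ethanol and 178 CPM (95% interval 157 to 201; 258 UMIs) in young vehicle. The aged vehicle value stood above the other 3, and the young intervals overlapped. Choroid plexus markers summed within those same spots to 126382 CPM in aged ethanol and 200184 CPM in aged vehicle, 101693 CPM in young ethanol and 142644 CPM in young vehicle, the same direction as Kcnj13, and their part was not tested. Outside those spots it had 0.946 CPM (95% interval 0.690 to 1.27; 45 UMIs) in aged ethanol and 2.40 CPM (95% interval 1.97 to 2.90; 108 UMIs) in aged vehicle, and 0.399 CPM (95% interval 0.253 to 0.598; 23 UMIs) in young ethanol and 2.08 CPM (95% interval 1.71 to 2.52; 107 UMIs) in young vehicle.

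Kcna1 had 6.05 CPM (95% interval 5.37 to 6.78; 291 UMIs) in aged ethanol and 2.80 CPM (95% interval 2.34 to 3.33; 129 UMIs) in aged vehicle, a ratio of 2.16 (95% interval 1.75 to 2.67). In young sections its ratio was 1.32 (95% interval 1.11 to 1.59). Within thalamus spots, the aged ratio of Kcna1 was 4.14 (95% interval 1.98 to 10.00) and the young one 1.16 (95% interval 0.652 to 2.21). Reticular thalamus markers within those spots summed to 530 CPM in aged ethanol and 122 CPM in aged vehicle, 558 CPM in young ethanol and 88.1 CPM in young vehicle. Their part in these ratios was not tested. Within white matter, the region with its highest mean, Kcna1 had 47, 19, 47 and 19 UMIs, too few for the rule. Its ratio there was 1.74 (95% interval 1.001 to 3.14) in aged and 2.11 (95% interval 1.21 to 3.80) in young libraries. Whether the aged and young ratios differ was not tested.

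In the hippocampal fields together (dentate granule, CA3 and CA1), aged ethanol against aged vehicle passed the rule for 2 members, among them Kcns3, lower, where 0.998% of all genes passed. The fields made up unlike shares of these sums in the libraries, and the part of this in the ratios was not tested. Kcns3, a silent subunit, had 8.35 CPM (95% interval 5.75 to 11.7; 33 UMIs) in aged ethanol and 16.9 CPM (95% interval 12.9 to 21.7; 61 UMIs) in aged vehicle. It had 8.30 CPM (95% interval 5.60 to 11.9; 30 UMIs) in young ethanol and 7.68 CPM (95% interval 5.14 to 11.02; 29 UMIs) in young vehicle, so the aged vehicle library stood apart. Aged against young vehicle therefore passed the rule for Kcns3, higher, where 0.154% of all genes passed, and this comparison shares the aged vehicle library with the one before. No member passed in young ethanol against young vehicle (0.366% of all genes) or in aged against young ethanol (0.346% of all genes). In neocortex 0 members passed in any of the 4 comparisons. There 0.648% of all genes passed for ethanol against vehicle in aged and 0.567% in young libraries, 0.679% for aged against young with ethanol and 0.346% with vehicle.

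In white matter, Kcnn2, a small-conductance calcium-activated channel, was the member that passed for ethanol against vehicle, lower in both aged and young libraries, where 2.31% and 2.22% of all genes passed. It had 46, 71, 48 and 96 UMIs (16.3, 35.9, 16.2 and 38.01 CPM), a ratio of 0.456 (95% interval 0.307 to 0.669) in aged and 0.426 (95% interval 0.295 to 0.608) in young libraries. Both ethanol libraries lay below both vehicle libraries. The 4 neuronal markers summed there to 759.5, 746, 776 and 863 CPM. Between ages 0 members passed in white matter, with ethanol (0.81% of all genes) or vehicle (0.494%).

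In thalamus, young ethanol against young vehicle passed for 4 members, where 1.22% of all genes passed. Reticular thalamus markers summed within thalamus spots to 530, 122, 558 and 88.1 CPM, and their part in the ratios here was not tested. Kcnab3 had 62.95, 44.1, 80.2 and 31.9 CPM there, Kcnk4 16.6, 15.8, 18.9 and 9.05 CPM and Kcnip2 9.67, 9.41, 8.32 and 18.6 CPM. Kcnj8 had 21, 20, 56 and 8 UMIs. In young vehicle Kcnab3 and Kcnk4 were the lowest of the 4 libraries and Kcnip2 the highest. Higher were Kcnab3, at a ratio of 2.51 (95% interval 1.95 to 3.29), Kcnk4, at 2.09 (95% interval 1.29 to 3.58), and Kcnj8, at 2.07 (95% interval 0.983 to 5.03). Kcnip2 was lower, at 0.448 (95% interval 0.294 to 0.690). The interval of Kcnj8, a pore of ATP-sensitive channels, held 1. In aged libraries the ratio was 1.43 (95% interval 1.14 to 1.81) for Kcnab3, 1.05 (95% interval 0.699 to 1.60) for Kcnk4, 0.552 (95% interval 0.285 to 1.07) for Kcnj8 and 1.03 (95% interval 0.601 to 1.80) for Kcnip2, and Kcna1 alone passed there (1.14% of all genes). Aged against young passed for 0 members in thalamus, with ethanol (0.566% of all genes) or vehicle (0.195%).

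In hypothalamus, young ethanol against young vehicle passed for Kcnmb4, with 39.1, 22.6, 34.3 and 13.7 CPM in the 4 libraries, higher at a ratio of 2.50 (95% interval 1.69 to 3.79), where 1.86% of all genes passed. The aged ratio of Kcnmb4 was 1.73 (95% interval 1.27 to 2.39), and 0 members passed in aged libraries (1.07% of all genes). Aged against young vehicle passed for Kcne1l, higher at 2.31 (95% interval 1.46 to 3.74), where 1.28% of all genes passed. With ethanol its aged to young ratio was 0.982 (95% interval 0.678 to 1.42), and 0 members passed (0.361% of all genes). These regional sums hold fewer UMIs than whole sections, and none of the ratios has a replicate.

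**Figure D5:**
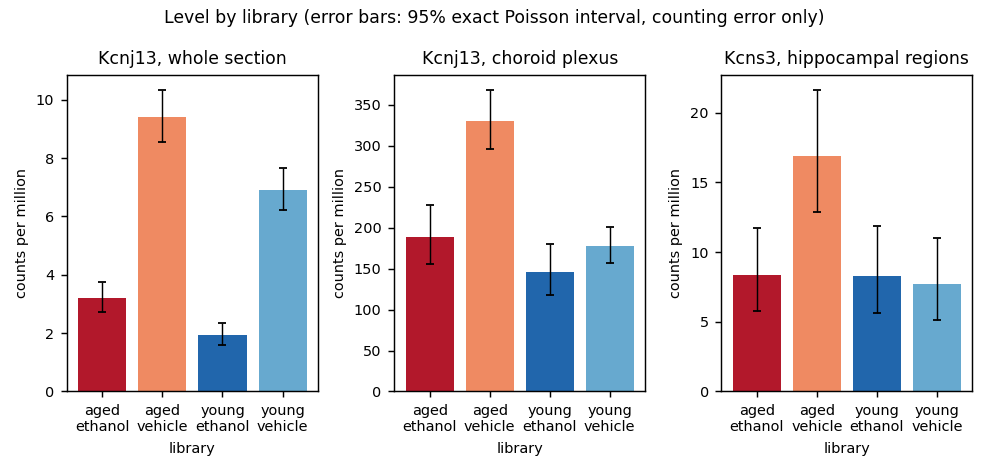
CPM (linear axes from 0) of Kcnj13 in whole sections and in choroid plexus spots and of Kcns3 in the hippocampal fields; bars are single libraries and error bars exact 95% Poisson intervals. Kcnj13 is lower in both ethanol sections than in both vehicle sections, and Kcns3 is highest in aged vehicle at 16.9 CPM.

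Values within a region were set beside those of the whole section for Kcnc2, Kcnc1 and Kcnip2, which were called between thalamus and neocortex and were chosen after their values were seen, since both ethanol sections held more thalamus spots. Kcnc2, highest in thalamus, had a whole-section ratio for ethanol against vehicle of 1.17 (95% interval 1.12 to 1.22) in aged and 1.52 (95% interval 1.46 to 1.58) in young libraries. Within thalamus spots the same ratios were 0.947 (95% interval 0.869 to 1.03) in aged and 1.10 (95% interval 1.01 to 1.20) in young libraries, closer to 1. Kcnc1, also highest in thalamus, had whole-section ratios of 1.24 (95% interval 1.19 to 1.29) in aged and 1.25 (95% interval 1.20 to 1.29) in young libraries, and within thalamus of 1.25 (95% interval 1.14 to 1.37) in aged and 1.19 (95% interval 1.08 to 1.31) in young libraries. Kcnip2, low in thalamus, had whole-section ratios of 0.776 (95% interval 0.747 to 0.805) in aged and 0.891 (95% interval 0.861 to 0.922) in young libraries. In the hippocampal fields its ratios were 1.04 (95% interval 0.957 to 1.12) in aged and 1.02 (95% interval 0.941 to 1.10) in young libraries, and both intervals held 1. These pooled fields held 1396066 dentate granule UMIs in aged ethanol and 660415 in aged vehicle, 1213539 in young ethanol and 864524 in young vehicle. Kcnip2 was highest in dentate granule, and the part of these unlike shares was not tested. Reticular thalamus markers within thalamus spots were higher in both ethanol libraries, as given above. Their part in these ratios and that of the section's make-up were not tested.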

How the data were processed

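The deposited matrix holds UMI counts per gene and spot for 4 Visium libraries, made by the authors with Space Ranger (1.3.1 per the file headers, 2.0.0 per the submitters' processing notes) on mm10. The annotation release and strand setting are not given in the sources used here. The members, gene lists and tests were chosen with earlier results of these data known.

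Of 11064 spots, 10942 with at least 500 UMIs were clustered with scanpy 1.11.5 (1635 features without Kcn or related channel genes, 30 principal components, 15 neighbours, Leiden resolution 1) into 23 clusters, named by marker lists. Variable features came from every other gene of the list. The genes in between, with the Kcn and related genes and without the markers, entered the tests, so no tested gene shaped the regions.

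Counts were summed per region and library and tested with edgeR 4.0.16 (quasi-likelihood, TMM, filterByExpr) in R 4.3.3, with the library as a block because each section holds every region compared. The fit was tested on simulated data. Ratios between groups (1 library each) have exact 95% intervals for counting error and no test.

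Named in full were the 3 called members with the largest fitted difference per direction, the member with most UMIs of each family, members whose highest region was at least 4 times the median region, and members passing the rule between libraries. Others have single values or were chosen after values were seen. Library ratios in white matter, thalamus and hypothalamus were also added after values were seen. Alternatives were DESeq2 1.42.0, no TMM factor, no filter, no block, a joint fit, at least 3000 UMIs per spot, Leiden resolution 1.5 and each library left out. For groups, other scalings and thresholds were tried. Results for a few genes are not reported here.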

Additional observations from a re-analysis of the deposited data

Results flagged for a closer look

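Over whole sections, 2 members had ethanol to vehicle ratios on opposite sides of 1 in aged and young mice, with both counting intervals leaving out 1. By the same intervals, 21 members had ratios above 1 at both ages and 7 had ratios below 1 at both ages. The shares of all genes for these counts were not computed. Both ethanol sections held more thalamus spots than the vehicle sections. Thalamus was the highest region of several of the 21, such as Kcna2, Kcnc1 and Kcnc2, and of none of the 7. The part of the section's make-up in these counts was not tested. The difference between the ages was not tested, since each ratio comes from 1 library per group. Kcnab3, a beta subunit of Kv1 channels, had a ratio of 0.881 in aged sections (95% interval 0.817 to 0.950; 1313 UMIs with ethanol and 1424 with vehicle) and 1.40 in young sections (1.31 to 1.48; 2596 UMIs with ethanol and 1685 with vehicle). The aged ratio over the young ratio was 0.631. Within neocortex the ratios of Kcnab3 were 0.803 in aged and 1.38 in young libraries. Other regions differed: within thalamus spots both of its ratios were above 1, as given above. In deep neocortex alone, aged ethanol lay above aged vehicle and young ethanol below young vehicle. Kcnk1, a tandem pore-domain channel, had a ratio of 0.810 in aged sections (0.777 to 0.844; 4215 UMIs with ethanol and 4975 with vehicle) and 1.08 in young sections (1.04 to 1.12; 6875 UMIs with ethanol and 5775 with vehicle). Its aged ratio over its young ratio was 0.751, and within neocortex its ratios were 0.742 in aged and 0.998 in young libraries.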

How the results depend on the processing

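The count of members called stayed within 1.5 times the reported one in most alternatives, among them DESeq2 and spots of at least 3000 UMIs in all 14 counts of the region comparisons, and no called member changed sign. With the finer clustering, 5 members were lower in CA3 than in CA1, against 11 reported. In dentate granule against CA3, 3 members were lower without the TMM factor, 10 were higher with no filter on low counts and 14 were higher in the joint fit. Leaving out 1 library gave 3 to 5 lower there, the 3 without young ethanol. The joint fit called 5 members higher in white matter. In upper against deep neocortex, the count lower was 1 with no filter, 2 in the joint fit, 1 at the finer clustering and 0 to 1 with 1 library left out, the 1 without young vehicle. At 1.5-fold, the members passing between libraries were 8 for ethanol against vehicle in aged and 7 in young sections, and 3 for aged against young with ethanol and 3 with vehicle. The shares of all genes at 1.5-fold were not computed, so these counts cannot be set against them. The cause of these shifts was not tested, apart from the fit with no filter, which tests more genes. Without the library block that pairs regions within a section (no replicate block), counts were 7 higher and 4 lower in dentate granule against CA3 and 10 higher and 27 lower in hypothalamus, and no other count moved. Sums of the small hippocampal fields limit calls of members with few UMIs.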
